A study of Rattus norvegicus with 12 samples.

Results

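The Dlx homeobox genes and the genes for making and packaging GABA mark the ventral forebrain, and here they were followed in rat embryos at embryonic day 14 (E14). The set was named by gene symbol: Dlx1, Dlx2, Dlx5 and Dlx6, the glutamate decarboxylase genes Gad1 and Gad2, and Slc32a1, which encodes the vesicular GABA transporter. A probe set, the group of probes that reads a transcript, stood for a gene where the platform annotation gave it exactly 1 symbol. Of the 7 genes, 5 were read in this way, Dlx1, Dlx5, Gad1, Gad2 and Slc32a1, out of 14506 genes in all. Each was read by 1 probe set. Dlx2 and Dlx6 were not analysed here.

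RNA from the whole ganglionic eminence of 12 embryos was measured, with 1 Affymetrix Rat Gene ST array per embryo. There were 6 wild-type embryos and 6 homozygotes (BACHD+/+), which carry a transgene for the whole human huntingtin protein, mutant by its tract of 96 CAG repeats, and both genotypes came from the same 3 time-bred dams dissected on one day. Medial and lateral eminences of an embryo were pooled, so each value is an average over both and over progenitors and neurons. The labels do not give strain, sex, or the dam of each embryo.

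In the ventral forebrain, or subpallium, Dlx proteins are transcription factors that act in progenitors and young neurons to set the GABAergic fate. Dlx1 and Dlx2 are neighbours on a chromosome, as are Dlx5 and Dlx6, and in development the first pair precedes and promotes the second. Gad1 and Gad2 make GABA from glutamate, the first in the cell body as well as the terminal and the second mainly at terminals, and Slc32a1 loads GABA into synaptic vesicles. The eminences send GABAergic neurons to the striatum and, by tangential migration, to the cortex.

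Whole arrays were alike, and any pair had an r of at least 0.994 over probe sets, which share embryos and are no replicates. Array medians overlapped between the genotypes but reached higher in homozygotes, at 7.67 to 7.71 for wild type and 7.69 to 7.76 for homozygotes. This difference was not tested. The probe set of rat Htt read between 9.77 and 10.07 in wild type and between 10.16 and 10.40 in homozygotes, without overlap. Of all probe sets 1.86% had ranges that did not overlap. Whether the transcript of the human transgene also binds these probes was not tested. Wild type 1 and wild type 2 shared a departure from their group, with r = 0.24 between their deviations across probe sets, where no other pair within a genotype exceeded 0.086. The differences of Dlx5, Sst and Npy are given below with and without both embryos. So are the relations of Dlx5 to Dlx1, Slc32a1 and the medial eminence, radial glia and postmitotic neuron lists.

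All 5 genes were well above the level of genes that this tissue should not use. Olfactory receptor genes, read by 59 probe sets, had a median log2 intensity of 5.14, and their 95th percentile of 6.72 served as the level above which a probe set was taken as detected. In wild type the mean was 11.84 for Dlx1, 11.75 for Dlx5, 11.85 for Gad2, 10.61 for Gad1 and 9.90 for Slc32a1. These lay between 3.18 and 5.13 log2 units above the olfactory percentile. Probes differ in brightness, so the order of these values is not an order of transcript abundance. The related genes Dlx3 and Dlx4, which act mainly outside the forebrain, stood at 6.98 and 7.09 in wild type, just above that percentile.

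**Figure D1:**
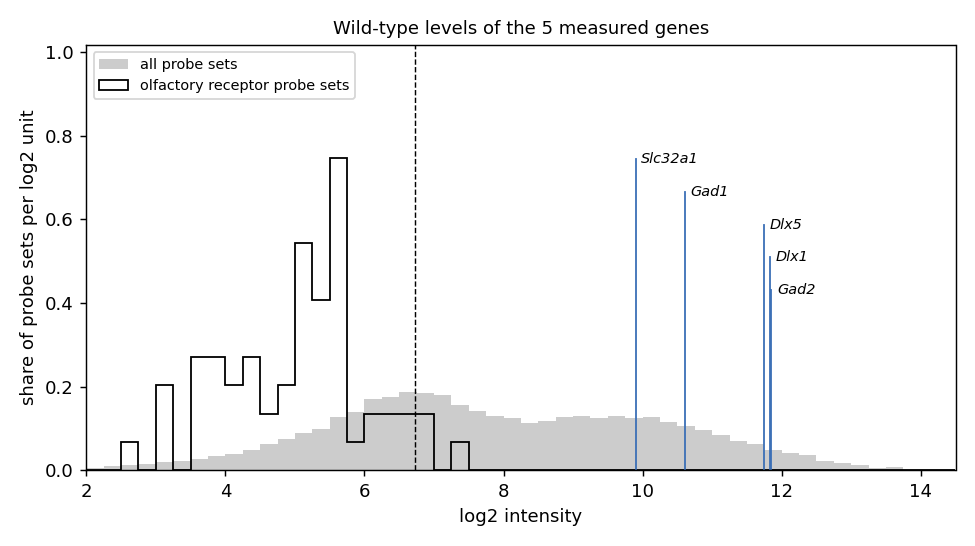
Wild-type mean log2 intensity of the 5 measured genes (blue lines, whose heights only separate the names) against the distribution over all 29214 probe sets (grey) and over 59 olfactory receptor probe sets (black outline; dashed line at their 95th percentile, 6.72). All 5 genes lie to the right of the dashed line.

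The tissue label was checked against defining genes of the eminences. Nkx2-1 and Lhx6, transcription factors of the medial eminence and its interneurons, stood at 10.75 and 10.69 in wild type. Gsx2, Isl1 and Meis2, of the lateral eminence and striatal lineage, stood at 10.38, 11.05 and 12.79. All 8 measured medial eminence genes were above the olfactory percentile, and 8 of 9 lateral eminence genes. The exception was Ikzf1, at 6.46. Pallial genes were detected too: all 10 measured members of a pallial list were above the olfactory percentile, with Neurod6 at 10.29 and Slc17a7, the vesicular glutamate transporter, at 8.33. Of 7 choroid plexus genes 4 were not, among them Ttr at 6.08.

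The comparison of homozygous with wild-type embryos asked whether the transgene goes with early changes in expression. None of the 5 Dlx and GABAergic genes passed the test. In limma, at 0.05 after adjusting p for all 29214 probe sets (Benjamini-Hochberg), 0 of 5 were called, and 1 of 5, Dlx5, had an unadjusted p under 0.05. Over all probe sets 0.424% were called, 0.226% as higher and 0.199% as lower in homozygotes, and 15.0% had an unadjusted p under 0.05. That split moved with the scaling: 66 were higher and 58 lower in the fit reported, 35 and 267 with arrays centred on their medians, and 43 and 77 after quantile normalization. The number called also moved with single arrays, from 4 without homozygous 4, homozygous 5 or wild type 5 to 200 without wild type 3. The median difference of the 5, homozygous minus wild type, was -0.01 on the log2 scale, against 0.02 over all genes. In all 5 the ranges of the genotypes overlapped, where 1.86% of all probe sets had ranges that did not.

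**Figure D2:**
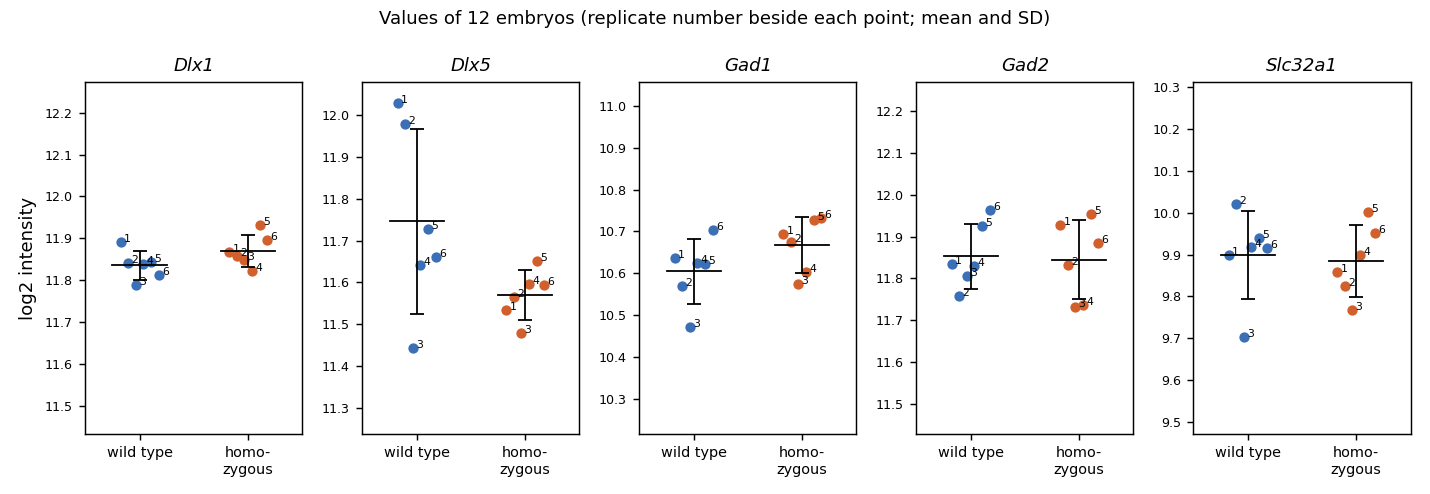
Log2 intensity of each gene in the 6 wild-type (blue) and 6 homozygous (orange) embryos, each point labelled with its replicate number, with the mean and SD in black. Every panel spans the same number of log2 units; Dlx5 in wild type is the widest group, with replicates 1 and 2 at the top and replicate 3 at the bottom.

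Dlx1 is the transcription factor gene of the pair expressed earliest in the eminence. Its wild-type values ran from 11.79 through a median of 11.84 to 11.89, and its homozygous values from 11.82 through 11.86 to 11.93. Homozygotes lay slightly higher, 5 of 6 above the wild-type median, with a large overlap. The difference was 0.03 ± 0.0245 (log2, SE, n = 6 per group; 1.02-fold, 95% confidence interval 0.988 to 1.06; adjusted p = 0.509 in limma). Its sign turned with arrays centred on their medians, to -0.0029. Dlx1 was a steady gene, with an SD within genotypes of 0.0368, below that of 83.8% of the 1479 probe sets within 0.5 log2 units of its level.

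Dlx5 encodes a protein that acts later than Dlx1, in cells leaving the proliferative zones, and takes part in the development of medial eminence interneurons. Wild-type values ran from 11.44 through a median of 11.70 to 12.03, and homozygous values from 11.48 through 11.58 to 11.65. All 6 homozygotes lay below the wild-type median, yet none lay below the lowest wild-type embryo. The difference was -0.18 ± 0.0804 (log2, SE, n = 6 per group; 0.885-fold, 95% confidence interval 0.785 to 0.997), with an unadjusted p of 0.0450 and an adjusted p of 0.321 in limma. The exact permutation p over all assignments of 6 and 6 was 0.0952 (2-sided). It was therefore not past the threshold in either test.

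The wild-type spread of Dlx5 came from few embryos. Wild type 1 stood at 12.03 and wild type 2 at 11.98, while wild type 3 stood at 11.44 and the other wild-type embryos between 11.64 and 11.73. The SD was 0.221 in wild type and 0.0589 in homozygotes, a ratio of 3.75, where the median ratio over all probe sets was 1.18 and 3.76% of probe sets had a ratio at least as large. With wild type 1 and 2 left out together, a setting chosen after seeing the data, the difference shrank to -0.05 ± 0.0486 (adjusted p = 0.700 in limma). With each array's difference between dim and bright probe sets as a covariate it was -0.09 ± 0.0758 (adjusted p = 0.710).

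The same embryos stood out for 2 peptide genes of interneurons, Sst for somatostatin and Npy for neuropeptide Y, named here after their values were seen. Sst was at 11.93 in wild type 1 and at 12.05 in wild type 2, and between 11.23 and 11.46 in the other wild-type embryos. Npy was at 10.47 and 10.48 in wild type 1 and 2, and between 9.70 and 10.04 in the others. Neither passed in limma, Sst at -0.13 ± 0.115 (adjusted p = 0.592) and Npy at -0.21 ± 0.127 (adjusted p = 0.451). Without wild type 1 and 2 the sign of Sst turned, to 0.07 ± 0.0506 (adjusted p = 0.592), and Npy stood at -0.02 ± 0.0891 (adjusted p = 0.959). In tissue pieces like these, fewer cells of a type and less RNA per cell cannot be told apart.

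Gad1 encodes GAD67, the isoform that makes most of the GABA of developing neurons. Its wild-type values ran from 10.47 through a median of 10.62 to 10.70, and its homozygous values from 10.57 through 10.68 to 10.73. Homozygotes lay somewhat higher, with 2 of 6 above the highest wild-type embryo and the rest inside the wild-type range. The difference was 0.06 ± 0.0403 (log2, SE, n = 6 per group; 1.04-fold, 95% confidence interval 0.984 to 1.11; adjusted p = 0.471 in limma). It was 0.02 with arrays centred on their medians and 0.04 without wild type 3.

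Gad2 encodes GAD65, the isoform tied to synaptic vesicles. Wild-type values ran from 11.76 through a median of 11.83 to 11.96, and homozygous values from 11.73 through 11.86 to 11.95. The genotypes covered nearly the same range. The difference was -0.0082 ± 0.0451 (log2, SE, n = 6 per group; 0.994-fold, 95% confidence interval 0.930 to 1.06; adjusted p = 0.943 in limma).

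Slc32a1 values of wild-type embryos ran from 9.70 through a median of 9.92 to 10.02, and those of homozygotes from 9.77 through 9.88 to 10.0025. As for Dlx5, the homozygous range lay inside the wild-type range, whose lowest value was again wild type 3. The difference was -0.01 ± 0.0516 (log2, SE, n = 6 per group; 0.990-fold, 95% confidence interval 0.917 to 1.07; adjusted p = 0.906 in limma). For Dlx1, Gad1, Gad2 and Slc32a1 the intervals reached at most 1.11-fold upward and at least 0.917-fold downward, and for Dlx5 0.785-fold downward. Larger average changes lie outside these intervals, and short probes can compress folds.

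Other genes of the pathway were read from 3 lists. Of 36 measured genes in the lists of Dlx regulators, genes downstream of Dlx, and GABA metabolism and transport, none passed in limma, where 0.424% of all probe sets did, and 1 had an unadjusted p under 0.05. Their median difference was -0.0022. Among 4 measured regulators of Dlx, Nkx2-1, which specifies the medial eminence, stood at 0.16 ± 0.0403 (adjusted p = 0.108), and its genotypes did not overlap: wild-type values reached from 10.58 to 10.846 and homozygous values from 10.855 to 10.96. It was the 1 gene of the 36 without overlap, where 1.86% of all probe sets had none. Shh, the ventral signal, differed by 0.06 ± 0.0344, Six3 by 0.05 ± 0.0303 and Gsx2, which specifies the lateral eminence, by -0.03 ± 0.0406.

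Downstream of Dlx, 22 of 28 listed genes were measured, 11 above and 11 below 0, with a median difference of -0.0040 and a lowest adjusted p of 0.390. All but Ikzf1 were above the olfactory percentile. The 4 with the smallest p were Etv1 of the lateral eminence (-0.05 ± 0.0277), Lhx6 of migrating interneurons (0.07 ± 0.0400), Isl1 of young striatal neurons (-0.10 ± 0.0539) and Ackr3, a chemokine receptor of migrating interneurons (-0.05 ± 0.0302). Of the 14 genes for GABA metabolism and transport 10 were measured, with a median of -0.01. Their smallest p values belonged to the chloride importer gene Slc12a2 (-0.07 ± 0.0475), Abat for GABA breakdown (0.05 ± 0.0359), Slc38a3 for glutamine transport (-0.10 ± 0.0843) and the chloride exporter gene Slc12a5 (0.06 ± 0.0559). The lowest adjusted p in this list was 0.488.

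**Figure D3:**
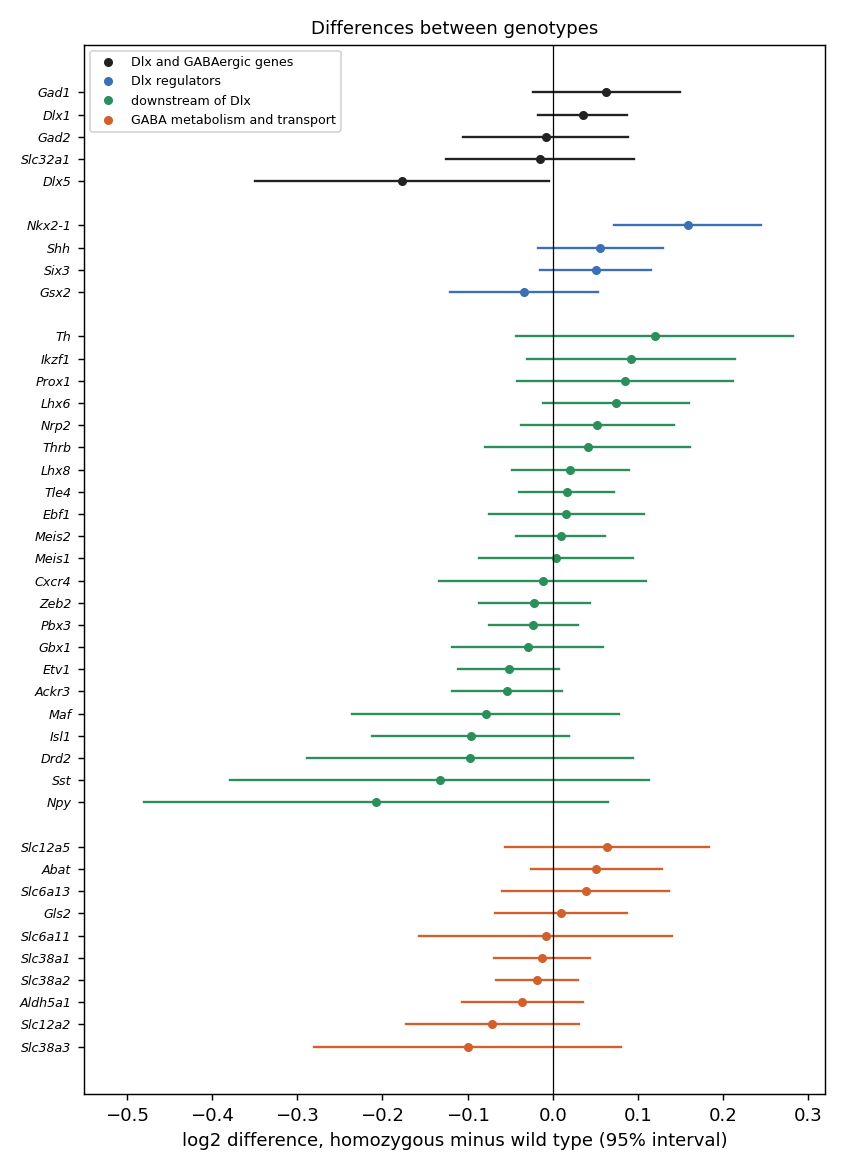
Log2 difference, homozygous minus wild type, with its 95% confidence interval from limma (not adjusted for the number of genes) for the 5 Dlx and GABAergic genes (black), 4 Dlx regulators (blue), 22 genes downstream of Dlx (green) and 10 genes of GABA metabolism and transport (orange). Dlx5 and Nkx2-1 have intervals that leave out 0, and neither passed after adjustment over all probe sets.

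The nearest measured genes beside Dlx1 and Dlx5 were also read, in the gene order of the rat assembly GRCr8. On chromosome 3, Metap1d and Itga6 on either side of Dlx1 differed by 0.10 ± 0.0409 and 0.04 ± 0.0247 (adjusted p = 0.269 and 0.450 in limma). On chromosome 4, Sem1 and Sdhaf3 beside Dlx5 differed by 0.02 ± 0.0672 and -0.05 ± 0.0578 (adjusted p = 0.881 and 0.699). None passed.

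Markers of the cells in the dissection are given as summed linear intensity over each list. The brightest genes of a list weigh most in its sum, so changes in dimmer genes hardly show there. Over 10 pallial genes the wild-type sums ran from 6541 to 8769 and the homozygous sums from 6867 to 7530, with none called. Over 16 genes of postmitotic neurons it ran from 58750 to 60710 and from 57010 to 62480, and Nefl, a neurofilament gene, fell by 0.42 ± 0.0653 (adjusted p = 0.0273 in limma). Over 13 radial glia and progenitor genes it ran from 49110 to 51700 and from 49270 to 50900, and Id4, an inhibitor of differentiation, fell by 0.20 ± 0.0346 (adjusted p = 0.0303). These were the 2 called of 116 list genes, where 0.424% of all probe sets were called, and in 7 of the 12 fits with 1 embryo left out no list gene was called. Nefl lost its call without homozygous 1, 2, 3, 4 or 5 or wild type 5 or 6 (adjusted p 0.0540 to 0.0791), and Id4 without any of these or without homozygous 6 or wild type 4 (0.0597 to 0.0791). Nefl and Id4 also lost it with the replicate number as a block (0.0717 and 0.0599) and without the intensity trend (0.0596 and 0.0837). The same held without variance moderation across probe sets (0.0547 for each), and for Nefl with the dim and bright covariate (0.06625). An unadjusted p under 0.05 was reached by 4 of 10 pallial, 7 of 16 neuronal, 6 of 13 radial glia, 1 of 8 medial and 0 of 9 lateral eminence genes, against 15.0% of all probe sets. The 4 pallial genes were all lower in homozygotes: Neurod6 (-0.36 ± 0.105), Slc17a7 (-0.25 ± 0.083), Neurod2 (-0.25 ± 0.095) and Bhlhe22 (-0.17 ± 0.076). Of the 10 pallial genes 8 lay below 0, with a median difference of -0.07 against 0.02 over all genes. The 7 neuronal genes went both ways, with Map2 (0.09 ± 0.0263) and L1cam (0.10 ± 0.0393) higher in homozygotes and the rest lower. Of the 6 radial glia genes Hes5 (0.15 ± 0.0419) was higher and the rest lower. The 8 medial eminence genes summed to 12590 to 14780 in wild type and 12940 to 14410 in homozygotes, and the 9 lateral eminence genes to 21590 to 22410 and 21260 to 22700.

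Lists of other cells held no called gene. Sums for 8 endothelial genes were 3146 to 3628 in wild type and 3277 to 3420 in homozygotes, and for 8 microglial genes 1818 to 2236 and 1785 to 2118, with Ptprc below the olfactory percentile. For 5 erythroid genes they were 15910 to 17750 and 15740 to 16520, most of it from Hbe1 (log2 intensity 13.82 in wild type). Of the 5 genes 4 lay below 0, with Hbb at -0.49 ± 0.147 (adjusted p = 0.155 in limma). The 7 mesenchymal genes gave 1591 to 1758 and 1684 to 1805, with Dcn and Lum below the olfactory percentile. The 7 choroid plexus genes gave 680.5 to 733.3 and 666.3 to 789.5, with Ttr, Folr1, Clic6 and Msx1 below it. Above 0 lay 7 of 7 choroid plexus (median difference 0.09), 6 of 7 mesenchymal, 6 of 8 endothelial and 3 of 8 microglial genes. An unadjusted p under 0.05 in limma was reached by 2 of 7, 0 of 7, 2 of 8 and 0 of 8 of these, against 15.0% of all probe sets. The genotypes did not overlap for 1 endothelial gene, where 1.86% of all probe sets had no overlap. The part of these cells in the values of the Dlx and GABAergic genes was not tested beyond the relations that follow.

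Embryos of one genotype differed from each other in a shared way. Wild type 3 lay below its genotype's mean in all 5 genes and was the lowest wild-type embryo for Dlx1, Dlx5, Gad1 and Slc32a1. Homozygous 3 also lay below its mean in all 5, while homozygous 5 and 6 lay above it in all 5. Averaged over the 5 genes, wild type 3 deviated by -0.15, homozygous 3 by -0.09, homozygous 5 by 0.09 and homozygous 6 by 0.04. This average is unweighted, so Dlx5, with the widest SD within genotypes (0.162, against 0.0368 for Dlx1), counts most.

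**Figure D4:**
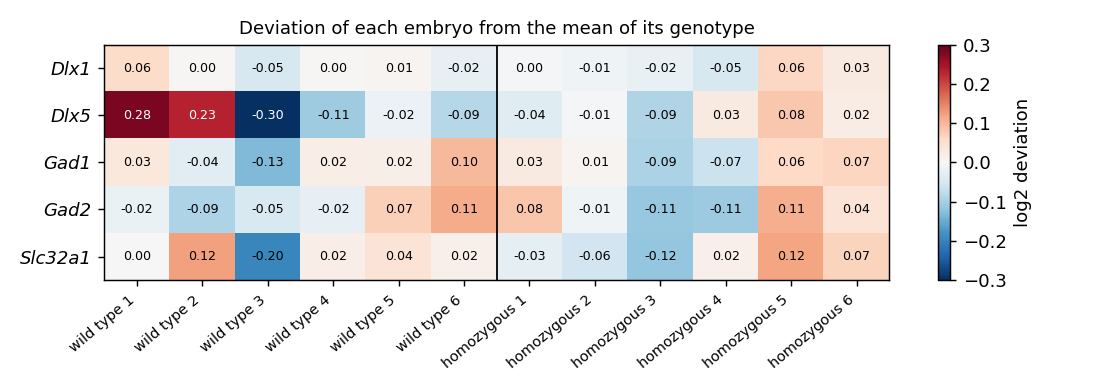
Log2 deviation of each embryo from the mean of its genotype, for each gene (rows) and embryo (columns, with a line between the genotypes); red is above and blue below the mean. Wild type 3 and homozygous 3 are blue in every row, homozygous 5 and 6 are above the mean in every row, and wild type 1 and 2 depart mostly in Dlx5.

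How far the genes varied together was measured on these deviations in 30 relations, 10 between pairs of genes and 20 between a gene and the mean deviation of a marker list. Each p comes from an exact permutation of embryos within genotypes (2-sided), adjusted over the 30. The replicate number of the labels was not removed, and its part in these relations was not tested. By Pearson's r 3 relations passed and by Spearman's rho 4, and 9 of 10 pairs had a positive r. Gad1 and Gad2 were the only pair to pass, with r = 0.80 (raw p = 0.00358, adjusted p = 0.0358, n = 12) and rho = 0.82 (raw p = 0.00352, adjusted p = 0.0476). Within genotypes r was 0.69 in wild type and 0.93 in homozygotes, with 6 embryos in each. Without the 2 embryos farthest from the median of Gad1, wild type 3 and homozygous 3, it was 0.86. With 1 embryo left out r stayed between 0.74 and 0.90. The adjusted p then rose above 0.05 when wild type 5 (0.0578) or 6 (0.0592) was dropped, as it did for homozygous 1 (0.0614), 2 (0.0569), 3 (0.0709), 5 (0.0791) or 6 (0.0532).

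The promoters of the pair that varied together, Gad1 and Gad2, are shown as the 250 bases before the RefSeq start on the plus strand of GRCr8, with CpG dinucleotides in capitals. That of Gad1 lies at chr3:75777202-75777451 and that of Gad2 at chr17:89671468-89671717.
Gad1: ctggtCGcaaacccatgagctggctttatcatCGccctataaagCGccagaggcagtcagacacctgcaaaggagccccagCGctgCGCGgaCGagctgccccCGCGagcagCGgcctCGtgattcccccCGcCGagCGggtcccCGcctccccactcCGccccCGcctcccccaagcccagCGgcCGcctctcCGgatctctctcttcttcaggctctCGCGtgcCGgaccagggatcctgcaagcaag
Gad2: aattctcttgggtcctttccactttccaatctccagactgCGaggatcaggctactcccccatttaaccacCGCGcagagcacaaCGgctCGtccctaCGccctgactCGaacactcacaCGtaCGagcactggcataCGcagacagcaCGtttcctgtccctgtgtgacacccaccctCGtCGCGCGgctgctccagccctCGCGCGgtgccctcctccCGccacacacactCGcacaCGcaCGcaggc
They hold 23 and 22 CpG, against a median of 5 over 33469 promoters of the same length, of which 12.3% and 13.7% hold as many or more. Dlx1 held 22 and Slc32a1 34. On both strands, the homeodomain core TAATTA was found in none of these 4 promoters and in 4.86% of all. TATAAA was found once in that of Gad1, not in the others, and in 12.9% of all. The E-box CANNTG was found once in that of Gad1, not in the other 3, and in 65.5% of all, and the GC box GGGCGG once each in those of Gad1 and Slc32a1 and in 30.5% of all. These matches are descriptions of the sequence in this window.

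**Figure D5:**
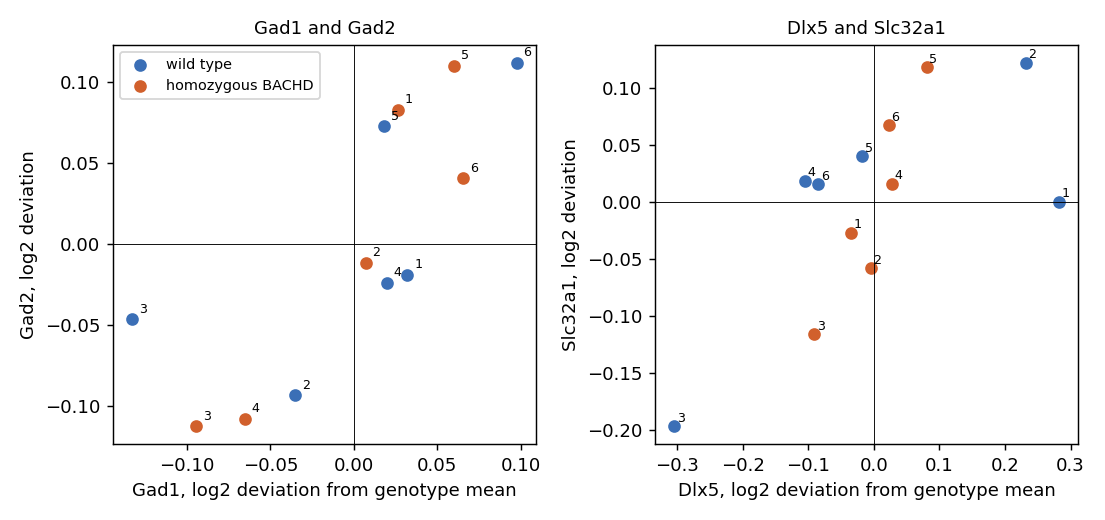
Log2 deviation from the genotype mean in 12 embryos, labelled with replicate numbers, for Gad1 against Gad2 (left) and Dlx5 against Slc32a1 (right). The points of the left panel rise together in both genotypes (r = 0.80), and in the right panel (r = 0.69) wild type 3 lies at the lower left.

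Among the other pairs, Dlx5 and Slc32a1 had r = 0.69 (raw p = 0.0120) and rho = 0.56 (raw p = 0.0692, adjusted p = 0.171), and r was 0.71 without wild type 1 and 3, the embryos farthest from the median of Dlx5. Without wild type 1 and 2 it was 0.93 and passed (adjusted p = 0.0156), and without wild type 3 it was 0.43 (adjusted p = 0.201). Dlx1 and Dlx5 had r = 0.66 (raw p = 0.00864) and rho = 0.57 (raw p = 0.0581, adjusted p = 0.158), and r fell to 0.48 without homozygous 5 and wild type 1 and was 0.60 without wild type 1 and 2 (adjusted p = 0.0958). Both pairs missed the threshold by exact permutation, with an adjusted p of 0.0516 for r over all 12 embryos, and both passed with arrays centred on their medians (adjusted p = 0.0255 for each). Dlx5 and Gad2 gave the only r below 0 among the pairs, at -0.05 (raw p = 0.880, adjusted p = 0.943) with a rho of 0.06 (raw and adjusted p = 0.869). The wild-type r of that pair was -0.25 and the homozygous r 0.51, and this difference was not tested.

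Set against marker lists, Dlx1 and Dlx5 each varied with the mean deviation of the 8 medial eminence genes. Of these Lhx6, Lhx8, Sst, Maf and Cxcr4 are also listed as downstream of Dlx. The mean is unweighted, so genes of wide spread count most: the SD within genotypes ran from 0.052 for Lhx8 to 0.234 for Sst. Single genes of the list were not tested, and Nkx2-1 did not follow Dlx5 in wild type. It was highest in wild type 3 (10.85) and lowest in wild type 2 (10.58), where Dlx5 stood at 11.44 and 11.98. For Dlx1 r was 0.82 (raw p = 0.00258, adjusted p = 0.0358 by exact permutation) and rho 0.84 (raw p = 0.00224, adjusted p = 0.0476). Within genotypes r was 0.78 and 0.85, and 0.82 without homozygous 5 and wild type 1. For Dlx5 r was 0.74 (raw p = 0.00227, adjusted p = 0.0358) and rho 0.69 (raw p = 0.0189, adjusted p = 0.0991). Within wild type it was 0.96 and within homozygotes 0.57, and it was 0.59 without wild type 1 and 3. The same list gave r = 0.75 for Slc32a1 (raw p = 0.00716, adjusted p = 0.0516), with rho = 0.65 (raw p = 0.0331, adjusted p = 0.124) and r = 0.58 without wild type 3 and homozygous 3. For Gad1 r was 0.67 (raw p = 0.0250, adjusted p = 0.0683) and rho 0.70 (raw p = 0.0198, adjusted p = 0.0991), with r = 0.42 without the same embryos. For Gad2 r was 0.40 (raw p = 0.221, adjusted p = 0.332) and rho 0.46 (raw p = 0.154, adjusted p = 0.272). Differences between the genes in this relation were not tested.

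Both calls were lost when single items were left out. Without Sst in the list, a setting chosen after seeing the data, r was 0.73 for Dlx1 (adjusted p = 0.0602) and 0.46 for Dlx5 (adjusted p = 0.0844). Without wild type 1 and 2 together they were 0.80 (adjusted p = 0.0759) and 0.66 (adjusted p = 0.0820). With wild type 3 left out the adjusted p was 0.127 for both. It was also above 0.05 for both without wild type 5 (0.0578), and when dropping homozygous 1 (0.0614), 2 (0.0569), 3 (0.0709) or 5 (0.0791), and for Dlx5 without wild type 2 (0.0560).

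The lists for neurons, progenitors and pallium gave no relation past the threshold by Pearson's r. Deviations of Dlx1 and Slc32a1 went with the 16 postmitotic neuron genes at r = 0.70 and 0.65 (adjusted p = 0.0608 for each by exact permutation, raw p = 0.0193 and 0.0203). By rank these passed, with rho = 0.79 and 0.77 (adjusted p = 0.0476 for each, raw p = 0.00489 and 0.00634). Without the 2 embryos farthest from the median of each gene, r was 0.76 and 0.64. Dlx5 went with the same list at r = 0.55 (raw p = 0.0120, adjusted p = 0.0516) and rho = 0.61 (raw p = 0.0268, adjusted p = 0.115). Its r was 0.91 within wild type, 0.41 within homozygotes and 0.53 without wild type 1 and 3. The relation passed with arrays centred on their medians (adjusted p = 0.0381) and without homozygous 4 (0.0447). Without wild type 1 and 2 its r was 0.39 (adjusted p = 0.211). Dlx5 ran against the 13 radial glia and progenitor genes at r = -0.79 (raw p = 0.0203, adjusted p = 0.0608), with rho = -0.65 (raw p = 0.0482, adjusted p = 0.153). The r was -0.92 within wild type, 0.14 within homozygotes and -0.52 without wild type 1 and 3, and the difference between genotypes was not tested. It was -0.35 without wild type 1 and 2 (adjusted p = 0.422). After quantile normalization it was -0.90 and passed (adjusted p = 0.0366), and with arrays centred on their medians it was -0.65 (adjusted p = 0.108). Gad2 ran against the 10 pallial genes at r = -0.58 (raw p = 0.0344, adjusted p = 0.0860), with rho = -0.45 (raw p = 0.129, adjusted p = 0.242) and r = -0.38 without wild type 6 and homozygous 5.

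In the unweighted average of the 5 genes Dlx5 counts most, as given above. The genes whose deviations were most like this average were looked for among 10757 detected genes over the 12 embryos, as a description. They were Zdhhc23, which encodes a palmitoyltransferase (r = 0.96), Snap91, for a clathrin assembly protein of synapses (0.94), Svop, for a synaptic vesicle protein (0.93), Maf, a transcription factor of medial eminence interneurons (0.93), and Papss1, which makes the sulfate donor (0.93). Of these Papss1 was called in limma and fell by 0.31 ± 0.0410 in homozygotes (adjusted p = 0.0164), a call lost without homozygous 4 (0.0592) or wild type 5 (0.0598). It was also lost without the intensity trend (0.0596) and with the dim and bright covariate (0.05045). The closest single gene was Pcdh8 for Dlx1 (0.90), Adprh for Dlx5 (0.98), Bcl2 for Gad1 (0.91), Pdik1l for Gad2 (0.92) and Dync1i2 for Slc32a1 (0.92). These are the highest of many comparisons over few embryos.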

How the data were processed

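The authors deposited a log2 intensity for each probe set on each array. Partek 6.4 and RMA are named in the submitters' processing notes, without settings. The scale was read from the values. Of 29214 probe sets, 15310 had 1 gene symbol, 323 several and 13581 none. A gene was read by its probe set with the highest mean. Groups came from the labels. All probe sets were fitted with limma 3.58.1 in R 4.3.3 (intensity trend, genotype as the only factor, 2-sided), with Benjamini-Hochberg adjustment at 0.05. This setting was tried on simulated data whose noise was independent between probe sets and between arrays. The simulation therefore does not cover departures that arrays share, such as that of wild type 1 and 2. Relations between genes used deviations from genotype means and were computed in Python 3.11.15. The tests were planned for 7 genes and run on the 5 that were measured. Named genes were these, up to 4 of each pathway list by smallest p, called list genes and the genes of closest pattern. Outside this rule, named genes were those checking the tissue and the target (Dlx3, Dlx4, Nkx2-1, Lhx6, Gsx2, Isl1, Meis2, Neurod6, Slc17a7, Ttr, Htt), undetected markers and the chromosomal neighbours. Sst, Npy, Lhx8, Neurod2, Bhlhe22, Map2, L1cam, Hes5, Hbe1 and Hbb were chosen after their values were seen. Genes and lists were chosen with earlier results of these data known. The number of arrays limits the precision. RMA brings arrays to like distributions, so a shift common to all genes could be lost. Labels do not say whether dams were balanced between genotypes. Other settings are given at the end. Promoter sequences are from RefSeq (GRCr8), which held 4 of the 5 genes.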

Additional observations from a re-analysis of the deposited data

How the results depend on the processing

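No Dlx or GABAergic gene was called in any of 24 other settings of the limma fit, where the lowest adjusted p was 0.121. The differences of Dlx5 and Gad1 kept their sign in all 24. Dlx1 turned to -0.0029 with arrays centred on their medians. Slc32a1 turned to 0.0011 with array weights, 0.0061 with the dim and bright covariate and 0.0155 without wild type 1 and 2. With 1 array left out the ranges were 0.02 to 0.05 for Dlx1, -0.24 to -0.12 for Dlx5, 0.04 to 0.08 for Gad1, -0.0302 to 0.0143 for Gad2 and -0.0544 to 0.0094 for Slc32a1. With the replicate number of the labels as a block, Dlx5 was at -0.18 ± 0.0697 (adjusted p = 0.275) and the calls over all probe sets were 18 in place of 124. The SE fell from 0.0403 to 0.0289 for Gad1 and from 0.045 to 0.032 for Gad2, and that of Dlx1 rose from 0.0245 to 0.0252. Deviations of same-numbered embryos correlated at -0.08 to 0.26, above 0.1 in 2 of 6 pairs, and the numbers were not taken as pairs. Embryos numbered 3 had the lowest average over the 5 genes in both genotypes (-0.15 and -0.09). Over all probe sets 124 were called, 4 to 200 with 1 array left out and 3 without the intensity trend. Of 116 list genes 2 were called, 5 with arrays centred on their medians and 0 to 3 with 1 array left out (0 in 7 of 12). Sst turned to 0.0656 without wild type 1 and 2. Of 30 relations 3 passed, 8 with arrays centred on their medians, 0 with the medial eminence list without Sst and 0 to 6 with 1 array left out. After quantile normalization 2 passed by exact permutation, Gad1 with Gad2 and Dlx5 with the radial glia list (adjusted p = 0.0366 for each). The adjusted p of Dlx1 and Dlx5 with the medial eminence list was then 0.0999 for each. Beyond what leaving out arrays or genes does by construction, the cause was not tested.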
